A study of Oryza sativa with 4 samples.

Results

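Genes of the circadian clock were followed in rice plants that overexpressed a CCCH zinc finger gene. The set held 9 genes, taken by a list of identifiers: LHY, the pseudo-response regulator genes PRR1, PRR37, PRR59, PRR73 and PRR95, GI, ELF3 and Os03g0752100. All 9 were listed in the deposited table, with 17 of its 37972 annotated transcripts (31414 genes). The identifier Os03g0752100 had been entered as LUX, but the table annotates it as similar to phytochrome C, and it is called PHYC here. The RefSeq gene list places PRR95 on chromosome 9, so Os09g0532400 is called PRR95 and the remaining Os11g0157600 PRR59.

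The non-transgenic (NT) control was Oryza sativa cv. Nakdong. The overexpressor carried PGD1::OsTZF8, where OsTZF8 is the label for OsC3H10 and PGD1 is the promoter for expression in the whole plant, and came from 1 transgenic line (#20) in the T4 generation. It is called OsC3H10OX below. The paper pairs the OsC3H10OX plants with cv. Nakdong in its drought tests. Seeds of both groups germinated on medium at 28 °C, darkened for their first 3 days. Seedlings then grew in soil with 2 plants to a pot, and untreated whole plants were harvested at 3 weeks. Each group had 2 libraries, which the methods call biological replicates. As inferred from the steps between low values, 1 FPKM (fragments scaled to transcript length and to mapped fragments) corresponded to about 56.3 fragments for each kilobase of transcript in the deepest library, NT replicate 2. In NT replicate 1 it was 37.1, and the OsC3H10OX libraries had 40.8 (replicate 1) and 37.4 (replicate 2). The NT sample names carry a number that looks like a year and those of OsC3H10OX do not. Its meaning is not given in the sources used here, and a batch that differed between the groups and the genotype cannot be told apart. The OsC3H10OX sample names carry numbers that differ between the replicates, and how these relate to line #20 is not stated. The hour at which each library was harvested is not given in the sources used here, so a difference in hour between the groups and the genotype itself cannot be told apart. The transgene's own transcript was not analysed here, and the group labels were not checked with it.

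The plant clock is a loop of repressors that act at successive times of the day. LHY, a MYB factor of the early morning, represses genes of the evening, and the PRR proteins follow one another through the day and repress LHY, with PRR1 (the rice counterpart of Arabidopsis TOC1) acting last. GI, a large plant-specific protein, accumulates towards the evening and links the clock with flowering, and in Arabidopsis ELF3 is the scaffold of the evening complex that represses PRR genes at night. Phytochrome C is a red-light receptor that affects flowering time in rice. In rice, PRR37 and ELF3 are also known as heading-date genes.

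Because FPKM take length into account, levels can be set side by side between genes. These genes act at successive times of the day and the hour of harvest is not given, so the order below holds for these libraries only. With the transcripts of each gene summed, the 9 genes spanned from LHY at 5.35 ± 0.0973 FPKM (SD, n = 2) to GI at 474.6 ± 18.3 FPKM in NT. GI stood 117th among all listed genes by its mean over the 4 libraries, PRR95 446th, and LHY 15031st, above 52.2% of them. PRR95 followed GI, with 182 ± 0.762 FPKM (SD, n = 2) in NT, and its 4 libraries lay apart from those of GI above and of PRR73 below.

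PRR73 (50.8 to 110.7 FPKM over the 4 libraries) and PRR1 (53.8 to 63.5 FPKM) came next, and their ranges overlapped. PRR59 (33.8 to 46.0 FPKM), PHYC (28.6 to 32.7 FPKM) and ELF3 (18.9 to 24.3 FPKM) followed without overlap. PRR37 (17.4 to 19.8 FPKM) could not be separated from ELF3 by its range, and LHY (5.28 to 12.4 FPKM) was below every other gene in each library. The 9 means had the same order in both groups, but single libraries did not always follow it. In replicate 1 of NT and of OsC3H10OX, PRR1 (54.4 and 63.5 FPKM) was above PRR73 (50.8 and 63.0 FPKM).

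**Figure D1:**
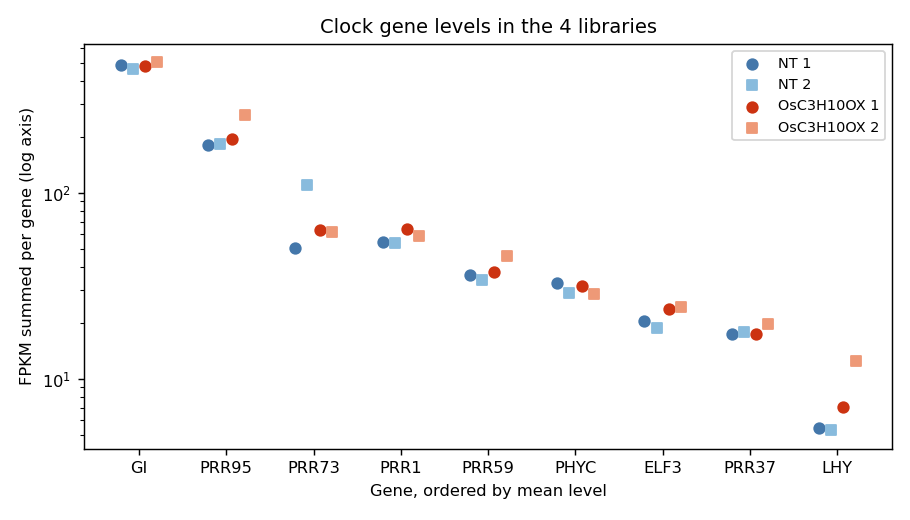
FPKM summed over the transcripts of each of the 9 genes (vertical log axis), with 1 point per library of NT (blue) and OsC3H10OX (red). GI was the highest gene and LHY the lowest in all 4 libraries, and PRR73 in NT replicate 2 (110.7 FPKM) stood away from its other libraries.

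The question of the comparison is which transcripts differ between OsC3H10OX and NT. Each difference (log2 fold change) is the OsC3H10OX mean less the NT mean of the deposited normalized log2 values. Calls rest on limma, a linear model that shares the spread over all transcripts, with p-values adjusted after Benjamini and Hochberg (BH) and a threshold of 0.05. Of the 17 clock transcripts, 14 reached 1 FPKM in at least 2 libraries and were tested, with every gene represented. None was called in either direction, where 1.49% of all 30449 tested transcripts were called, 0.647% as higher and 0.841% as lower. At an unadjusted p under 0.05 from limma 1 of the 14, ELF3, was higher and 0 were lower, where 17.7% of all were past it, 8.35% higher and 9.36% lower. No clock transcript was at least 2-fold higher, where 2.15% of all were, and 1, PRR73 Os03t0284100-02, was at least 2-fold lower, where 1.88% were. With 2 libraries a group, the smallest p of an exact permutation test is 0.333. In simulated libraries with 200 changed transcripts, limma recovered 0% of those changed by 1 on the log2 scale and 68% of those changed by 2. That simulation gave 132 calls and the data gave 453, and with more calls the adjusted p is less strict. It therefore cannot say whether a 2-fold change was detectable in these data.

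Among the genes of the morning, LHY (Os08g0157600, IRGSP-1.0, chromosome 8, 3360864 to 3373395) had the largest ratio of OsC3H10OX to NT in summed level, 1.82-fold. Its summed transcripts had 5.42 and 5.28 FPKM in the NT libraries and 7.06 and 12.4 FPKM in the OsC3H10OX libraries. The groups did not overlap, and the 2 NT libraries lay close together while OsC3H10OX replicate 2 stood far above replicate 1. On log2(FPKM + 1) of these sums the difference was 0.71 ± 0.26 (SE), with a 95% interval of 0.012 to 1.41 (BH-adjusted p = 0.243 in limma).

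The longest LHY transcript (Os08t0157600-01, 3236 nt) had 3.31 and 3.25 FPKM in NT and 4.38 and 7.03 FPKM in OsC3H10OX, from about 375, 561, 546 and 805 fragments. Its log2 fold change was 0.61 ± 0.24 (SE), with a 95% interval of -0.038 to 1.26 and an adjusted p of 0.301 (limma, BH). It was 0.29 without OsC3H10OX replicate 2 and 0.93 without OsC3H10OX replicate 1. The 1275-nt transcript (Os08t0157600-02) had 2.11 and 1.22 FPKM in NT and 2.68 and 2.84 FPKM in OsC3H10OX, again without overlap (difference of 0.51 in log2, BH-adjusted p = 0.330 in limma). That difference was 0.24 without NT replicate 2 and 0.78 without NT replicate 1. The 646-nt transcript (Os08t0157600-03) was assigned 0.807 FPKM in NT replicate 2 and 2.56 FPKM in OsC3H10OX replicate 2 but almost nothing in either replicate 1, and was too low to be tested.

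Set against genes of the evening within the same library, LHY was a small fraction. GI exceeded LHY by 90.0 and 87.4 times in NT and by 68.2 and 40.5 times in OsC3H10OX, and the ratio of LHY to PRR1 was 0.0997 and 0.0981 in NT and 0.111 and 0.211 in OsC3H10OX. Both ratios separated the groups, and in both OsC3H10OX replicate 2 was further from NT than replicate 1. Both hold LHY, whose summed level had already separated the groups, so they repeat that observation. Of all tested transcripts 53.2% separated the groups in either direction. Without LHY, the ratio of PRR1 to ELF3 overlapped (2.65 and 2.85 in NT, 2.68 and 2.42 in OsC3H10OX). That of GI to PRR1 did not (8.97 and 8.57 in NT, 7.58 and 8.53 in OsC3H10OX). These ratios are descriptions of libraries of unknown hour, with no test.

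The PRR genes encode proteins with a receiver-like domain and a CCT motif. PRR73 and PRR37 act early in the sequence. The longest PRR73 transcript (Os03t0284100-01, chromosome 3, 9759665 to 9768689, 3873 nt) had 31.9 and 40.1 FPKM in NT and 34.4 and 38.6 FPKM in OsC3H10OX. The groups overlapped, and the log2 fold change of 0.052 had a 95% interval of -0.34 to 0.44 (BH-adjusted p = 0.877 in limma). PRR37 (Os07t0695100-01, chromosome 7, 29616704 to 29629215) had 17.4 and 17.7 FPKM in NT and 17.4 and 19.8 FPKM in OsC3H10OX, also overlapping, with a log2 fold change of 0.088 and an interval of -0.21 to 0.38 (BH-adjusted p = 0.704 in limma). A second PRR37 transcript, of 726 nt, was at or near 0 in all 4 libraries.

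PRR95 and PRR59 act later in the day. The 2334-nt PRR95 transcript (Os09t0532400-02, chromosome 9, 20885172 to 20889703) had 179 and 178 FPKM in NT and 192 and 258 FPKM in OsC3H10OX. As for LHY, the NT libraries were nearly alike, the groups did not overlap and OsC3H10OX replicate 2 was the highest. The log2 fold change was 0.39 ± 0.16 (SE), with an interval of -0.041 to 0.82 (BH-adjusted p = 0.315 in limma), and 0.20 without OsC3H10OX replicate 2. The 2398-nt transcript (Os09t0532400-01) made up 1.29% to 2.34% of PRR95 and overlapped between groups.

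PRR59 (Os11t0157600-01, chromosome 11, 2789010 to 2793728) had 36.0 and 33.8 FPKM in NT and 37.4 and 46.0 FPKM in OsC3H10OX. The pattern was that of PRR95, with no overlap and the highest value in OsC3H10OX replicate 2 (difference of 0.27 in log2, interval -0.081 to 0.63, BH-adjusted p = 0.369 in limma). Without that library the log2 fold change was 0.13, and without OsC3H10OX replicate 1 it was 0.41. Within each library PRR95 exceeded PRR59 by 5.05, 5.40, 5.23 and 5.70 times in the order NT 1, NT 2, OsC3H10OX 1 and OsC3H10OX 2.

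Of the genes of the evening, PRR1 (Os02t0618200-01, chromosome 2, 24569488 to 24572391) had 54.4 and 53.8 FPKM in NT and 63.5 and 59.0 FPKM in OsC3H10OX. Here OsC3H10OX replicate 1 was the highest, and the groups did not overlap (difference of 0.23 in log2, interval -0.037 to 0.50, BH-adjusted p = 0.332 in limma). ELF3 (Os06t0142600-01, chromosome 6, 2234155 to 2236760) had 20.5 and 18.9 FPKM in NT and 23.7 and 24.3 FPKM in OsC3H10OX. Both OsC3H10OX libraries were above both NT libraries and close to each other, and the log2 fold change was 0.30 ± 0.10 (SE). Its 95% interval of 0.028 to 0.56 was the only one among the 14 transcripts that did not include 0, and its adjusted p was 0.253 (limma, BH).

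GI (Os01g0182600, chromosome 1, 4329361 to 4338486) was represented by a pair of long transcripts. Os01t0182600-01 had 318 and 286 FPKM in NT and 306 and 331 FPKM in OsC3H10OX, and Os01t0182600-03 had 169 and 176 FPKM in NT and 176 and 171 FPKM in OsC3H10OX. The groups overlapped for both, and Os01t0182600-01 made up 61.9% to 65.9% of GI in every library. Their normalized log2 fold changes were 0.18 and 0.11 (BH-adjusted p = 0.462 and 0.584 in limma), and 0.079 and 0.0073 with no normalization. The scale mattered at this level, since over the 1136 tested transcripts with a mean of at least 100 FPKM the median log2 fold change was -0.045 normalized and -0.13 not normalized.

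PHYC, the light receptor in the set, had 1 listed transcript (Os03t0752100-01, chromosome 3, 31007494 to 31009781, 1050 nt). Whether it covers the whole gene was not checked. It had 32.7 and 28.9 FPKM in NT and 31.6 and 28.6 FPKM in OsC3H10OX. The groups interleaved, with a log2 fold change of -0.0027 and an interval of -0.32 to 0.31 (BH-adjusted p = 0.994 in limma).

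**Figure D2:**
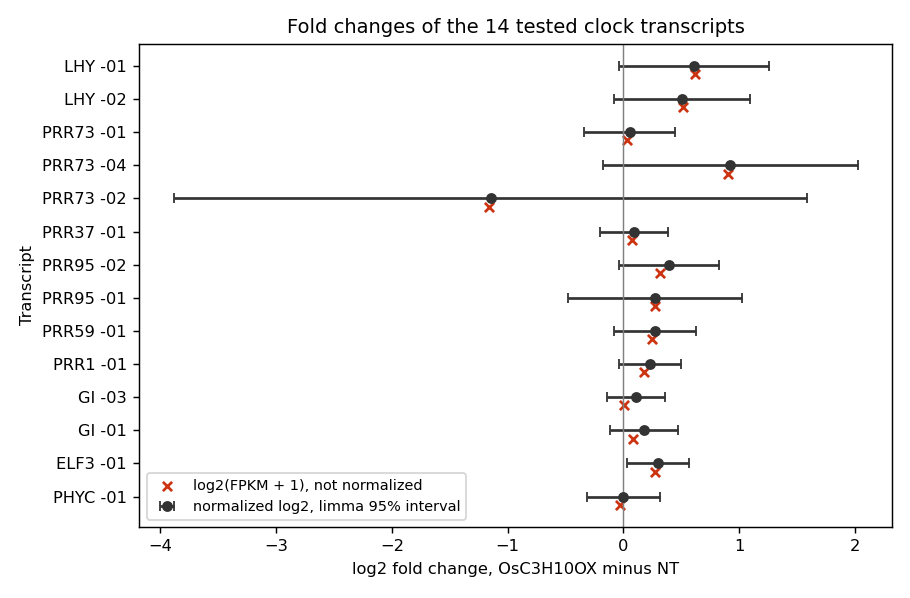
Log2 fold change (OsC3H10OX minus NT, horizontal axis) of the 14 tested clock transcripts, with black points and bars for the normalized values and limma's 95% interval, and red crosses for log2(FPKM + 1) with no normalization. The interval of ELF3 (0.028 to 0.56) excludes 0, and that of PRR73 transcript -02 (-3.88 to 1.59) is the widest.

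Over the 14 tested transcripts the median log2 fold change was 0.25, against 0.0017 over all tested transcripts, and 12 of 14 were above 0, against 50.3% of all. In 7 of the 14 the FPKM of both OsC3H10OX libraries exceeded both NT libraries, where 25.1% of all tested transcripts did so, and in 0 of 14 they were both lower, where 28.1% did (53.2% in either direction). Counted once per gene, by the transcript of highest mean, 5 of the 9 genes were higher without overlap (LHY, PRR95, PRR59, PRR1 and ELF3). Transcripts of 1 gene share reads and are not independent, and no test was made over the set. By FPKM, OsC3H10OX replicate 2 was the highest library in 8 of the 14 transcripts, against 21.7% of all, and NT replicate 2 the lowest in 8 of them, against 22.2% of all. On the normalized log2 values these counts were 7 and 9, against 25.8% and 27.1% of all. In the highest transcripts of the 9 genes the median gap between replicates was 0.091 on the log2 scale in NT and 0.16 in OsC3H10OX, against 0.12 and 0.17 over all tested transcripts.

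PRR73 was the gene whose transcripts disagreed. Os03t0284100-02 (1119 nt, chromosome 3, 9761283 to 9764048) had 7.01 and 65.2 FPKM in NT and 8.90 and 9.76 FPKM in OsC3H10OX. A single library, NT replicate 2, was high, and the other NT library was the lowest of the 4. The log2 fold change of -1.15 ± 1.02 (SE) had an interval of -3.88 to 1.59 (BH-adjusted p = 0.593 in limma). It was 0.35 without NT replicate 2, and -2.64 with an adjusted p of 0.0386 (limma, BH) without NT replicate 1, when the high library alone stood for NT.

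The share of PRR73 given to this transcript was 58.9% in NT replicate 2 and 13.8% to 15.9% in the others. In that library a short non-coding transcript of the gene (Os03t0284100-04, 382 nt) was lowest, with 5.39 FPKM against 11.8 in NT replicate 1 and 19.7 and 12.8 in OsC3H10OX. The groups did not overlap for it, and its log2 fold change was 0.92 (BH-adjusted p = 0.342 in limma). Without NT replicate 2 it was 0.41, and without NT replicate 1 it was 1.44. The remaining PRR73 transcript, Os03t0284100-03, was at or near 0 in 3 libraries and at 0.0405 FPKM in NT replicate 2.

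Transcripts of other genes overlap the locus too. Os03t0284150-00, a hypothetical protein at 9759930 to 9767728, had 128 and 104 FPKM in NT and 141 and 149 FPKM in OsC3H10OX, with NT replicate 2 the lowest, and the non-coding Os03t0284200-01 was under 1 FPKM in every library. Strand is not stated to have been used when FPKM were estimated, so reads of overlapping genes cannot be told apart. For the 4 PRR73 transcripts FPKM were multiplied by length in kilobases, less an inferred correction of 170 or 180 nt by library, and summed. This sum, which follows the fragments in equally deep libraries, was 127 and 211 in NT and 139 and 155 in OsC3H10OX. With both overlapping transcripts added it was 421 and 452 in NT and 462 and 497 in OsC3H10OX, where NT replicate 2 no longer stood apart. Os03t0284150-00 alone gave 294 and 240 of it in NT and 322 and 342 in OsC3H10OX, more than PRR73 in every library. Without Os03t0284100-02 the PRR73 sum was 120 and 150 in NT and 131 and 146 in OsC3H10OX, with NT replicate 2 still the highest. The cause of the high value in that library was not tested. PRR37 also overlaps a non-coding transcript, Os07t0695200-00, at 27.4 and 30.2 FPKM in NT and 28.1 and 29.2 FPKM in OsC3H10OX.

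**Figure D3:**
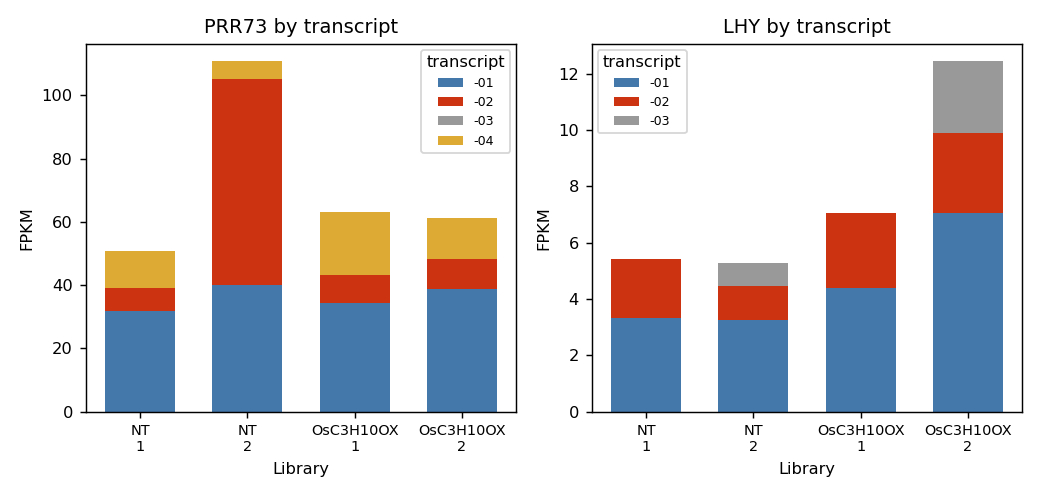
FPKM of each annotated transcript (stacked bars) of PRR73, left, and LHY, right, in the 4 libraries, on separate vertical axes that start at 0. In NT replicate 2 PRR73 transcript -02 reached 65.2 FPKM, against 7.01 to 9.76 in the other libraries, while LHY was highest in OsC3H10OX replicate 2.

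Further genes of the clock and its light input were taken from a list of identifiers and annotation words, from which members and identifiers without a matching annotation were left out. Of its 31 transcripts (25 genes), 28 could be tested and none was called, against 1.49% of all tested transcripts. At an unadjusted p under 0.05 from limma 5 were higher, against 8.35% of all, and 1 was lower, against 9.36%. Their median log2 fold change was 0.18, and 22 of 28 were above 0, against 50.3% of all. Higher without overlap were 16 of the 28, against 25.1% of all tested transcripts, and lower 4, against 28.1%.

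Among the light-input genes of this list, cryptochrome 1 (Os02g0573200), a blue-light receptor, had 12.0 and 12.4 FPKM in NT and 16.8 and 17.9 FPKM in OsC3H10OX (difference of 0.49 in log2, BH-adjusted p = 0.133 in limma). The gene similar to heme oxygenase 1 (Os06g0603000), of the enzyme that starts the synthesis of the phytochrome chromophore, had 44.1 and 43.2 FPKM in NT and 57.9 and 64.9 FPKM in OsC3H10OX (difference of 0.52 in log2, BH-adjusted p = 0.123 in limma). In both the replicates of a group lay closer to each other than to the other group, and neither passed the test. A helix-loop-helix factor (Os03g0782500) had 8.64 and 11.6 FPKM in NT and 16.2 and 14.7 FPKM in OsC3H10OX, again without overlap (difference of 0.58 in log2, BH-adjusted p = 0.203 in limma). In the other direction, a gene similar to the circadian clock coupling factor ZGT (Os05g0494600) had 1.47 and 2.31 FPKM in NT and 0.651 and 0.705 FPKM in OsC3H10OX (difference of -0.77 in log2, BH-adjusted p = 0.155 in limma). The other tested genes with that annotation, named after their values were seen, had positive differences and higher levels. Os07g0598200 had 47.7 and 46.1 FPKM in NT and 64.1 and 54.3 FPKM in OsC3H10OX (0.38 in log2, BH-adjusted p = 0.253 in limma), and Os03g0427000 had 12.3 and 11.8 FPKM in NT and 15.7 and 13.2 FPKM in OsC3H10OX (0.25 in log2, BH-adjusted p = 0.368 in limma), both without overlap.

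Os01g0971800 (chromosome 1, 42874272 to 42875515) had been entered in this list as LUX, the DNA-binding partner of ELF3 in the Arabidopsis evening complex, and was left out of the counts because the table annotates it as similar to the response regulator ARR11. The RefSeq list holds a gene under PCL1, the other name of LUX, on the same chromosome but gives it no identifier of this kind, so the name was not checked. It had 95.2 and 88.3 FPKM in NT and 29.8 and 50.1 FPKM in OsC3H10OX. Both OsC3H10OX libraries were well below both NT libraries, and the log2 fold change of -1.17 ± 0.27 (SE) missed the threshold (BH-adjusted p = 0.159 in limma). At least 2-fold lower were 1.88% of all tested transcripts.

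In rice the clock acts on flowering through genes of the day-length pathway. Of 16 listed transcripts of 13 such genes, 11 could be tested and none was called, against 1.49% of all. At an unadjusted p under 0.05 from limma 1 was higher and 1 lower, where 8.35% and 9.36% of all were, and the median log2 fold change was 0.17. Only 6 of the 11 were above 0, against 50.3% of all. Higher without overlap were 4, against 25.1% of all, and lower 2, against 28.1%. The B-box zinc finger gene Os02g0724000 had 15.3 and 15.7 FPKM in NT and 8.28 and 9.93 FPKM in OsC3H10OX (difference of -0.71 in log2, BH-adjusted p = 0.115 in limma). Another B-box gene, Os09g0240200, went the other way, with 2.06 and 2.01 FPKM in NT and 3.41 and 5.57 FPKM in OsC3H10OX (difference of 0.82 in log2, BH-adjusted p = 0.224 in limma). Both transcripts of the MADS-box gene Os03g0122600 had log2 fold changes of -0.33, with OsC3H10OX replicate 1 the lowest library and OsC3H10OX replicate 2 within or above the NT values.

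**Figure D4:**
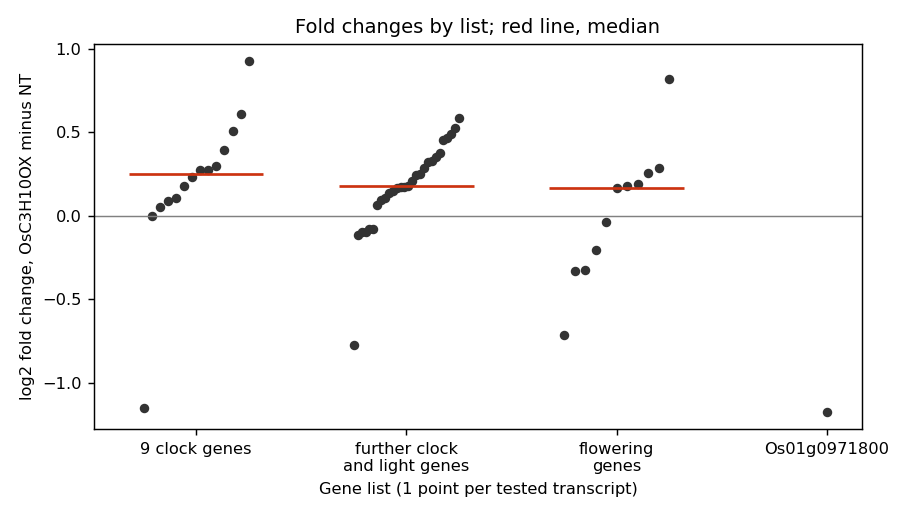
Log2 fold change (OsC3H10OX minus NT, vertical axis) of every tested transcript of the 9 clock genes, of the further clock and light genes, of the flowering genes, and of Os01g0971800, with red lines at the medians (0.25, 0.18 and 0.17). Most points of the first and second list lie above 0, as do 6 of the 11 flowering points, and Os01g0971800 lies at -1.17.

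Light-harvesting genes are known as rhythmic outputs of plant clocks. Of their 25 listed transcripts 23 were tested and none was called, against 1.49% of all. At an unadjusted p under 0.05 from limma 2 were higher and 1 was lower, where 8.35% and 9.36% of all were, and the median log2 fold change was 0.14. As in the clock lists most were above 0, 16 of the 23, against 50.3% of all. Higher without overlap were 11, against 25.1% of all, and lower 1, against 28.1%. The summed level of the 25 was 12728 and 12607 FPKM in NT and 14127 and 15124 FPKM in OsC3H10OX. Whole plants hold leaf and root, and fewer cells of a type and less RNA per cell cannot be told apart in such samples. The summed level of 47 photosystem and Rubisco small-subunit transcripts was 15389 and 15989 FPKM in NT and 15994 and 16987 FPKM in OsC3H10OX, and that of 20 root-marker transcripts was 1137 and 1150 FPKM in NT and 1219 and 857 FPKM in OsC3H10OX. OsC3H10OX replicate 2, in which LHY, PRR95 and PRR59 were highest, had the highest leaf and the lowest root sum. Of the 46 leaf markers tested 21 had a log2 fold change above 0, with a median of -0.044, and 13 were higher and 10 lower without overlap. Of the 18 root markers tested 8 were above 0, with a median of -0.028, and 4 were higher and 7 lower without overlap. Over all tested transcripts 50.3% were above 0, and 25.1% were higher and 28.1% lower without overlap. At an unadjusted p under 0.05 from limma 6 leaf markers were higher and 1 lower, and 2 root markers were higher and 4 lower. The shares of all past that p were 8.35% higher and 9.36% lower. No leaf marker and 2 of the 18 root markers were called, the latter as lower, against 0.841% of all, namely the RCc3-like genes Os04g0554500 (difference of -1.31 in log2, BH-adjusted p = 0.0243 in limma) and Os04g0554600 (-1.87, BH-adjusted p = 0.0437 in limma). Their part in the levels of the clock genes was not tested.

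The transcripts most like the longest LHY transcript, by the distance between log2 values centred over the 4 libraries and among 10424 annotated transcripts with a mean of at least 10 FPKM, were those of a D-alanine ligase family gene (Os07g0691200, distance 0.061), a tubulin alpha chain gene (Os11g0549900, 0.083) and a BLE2 gene (Os07g0650600, 0.096). The D-alanine ligase gene had 33.2 and 31.8 FPKM in NT and 39.9 and 59.4 FPKM in OsC3H10OX, the LHY pattern at a higher level. For the GI transcript Os01t0182600-01 the nearest were an F-box gene (Os02g0759700, distance 0.0097), a gene with a transcription elongation factor S-II domain (Os02g0208600, 0.019) and a potassium transporter gene (Os04g0613900, 0.021). With 4 libraries such likeness is a description of these libraries.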

How the data were processed

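Whole-plant RNA was sequenced from TruSeq (v2) libraries. The authors used Trimmomatic 0.32 for trimming and TopHat for mapping to the rice genome (build IRGSP-1.0, genes of RAP-DB), and the deposited values are FPKM per annotated transcript. The tool that estimated FPKM is not given in the sources used here. The log2 values the authors deposited were tested to be log2(FPKM + 1), quantile-normalized over the 4 libraries. The authors also deposited group means, a signed fold-change score and p-values of their own comparison, which were not used.

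From these, OsC3H10OX was compared with NT by limma 3.58.1 in R 4.3.3 (mean-variance trend, two-sided, BH over all 30449 transcripts with at least 1 FPKM in 2 libraries), without a count model, since the values are not counts. Depth was inferred from genes with 1 transcript, where 91.9% to 92.7% of low values were whole fragments within 0.05. The number of fragments limits the precision, and FPKM carry no counting interval. Replicates 1 and 2 come from the labels. Alternatives changed the scale, the pseudocount (0.1), the filter (none, or 5 FPKM), the unit (sums per gene), the variance model (no trend, robust), the replicate block and each library left out. Named genes are all members, called transcripts of the other lists, the 4 largest log2 fold changes of the clock and flowering lists, Os01g0971800 and the 3 nearest patterns. The members and lists were chosen with earlier results of these data known. In simulated libraries with 200 changed transcripts of 30449, 8 of 132 calls were of unchanged ones. RefSeq names come from the ASM3414082v1 gene list. No nucleotide or protein sequences are shown.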

Additional observations from a re-analysis of the deposited data

How the results depend on the processing

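No clock transcript was called under any alternative, except PRR73 Os03t0284100-02 without NT replicate 1 (clock transcripts called lower with 1 library left out, 0 to 1). Calls over all transcripts were 197 higher and 256 lower, 58 and 68 with no filter, 124 and 163 at 5 FPKM, and 0 to 580 and 0 to 449 with 1 library left out. Without NT replicate 2 limma called none, with 1209 higher and 1279 lower at an unadjusted p under 0.05. With the replicate block they were 17 and 8. The sources used here do not say whether the replicate numbers pair the samples. The deviations of replicate 1 in the 2 groups had a correlation of -0.026 over all tested transcripts. That value cannot show whether some transcripts share a batch. With the block 0 clock transcripts were called. Of 160 alternative values of the 14 clock transcripts, 8 had the other sign. PRR73 Os03t0284100-01 gave -0.27 with FPKM summed per gene and -0.10 to 0.21 with 1 library left out. The ranges with 1 library left out were -2.64 to 0.35 for Os03t0284100-02, -0.0031 to 0.18 for PRR37 Os07t0695100-01, -0.023 to 0.57 for PRR95 Os09t0532400-01 and -0.096 to 0.091 for PHYC Os03t0752100-01. The other 9 kept their direction under every alternative run. The cause of these shifts was not tested.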
